A study of Mus musculus with 8 samples.

Results

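The 31 genes described here encode the enzymes of the tricarboxylic acid (TCA) cycle, the pyruvate dehydrogenase complex that feeds it, the regulators of that complex, and enzymes that carry carbon between pyruvate, malate and citrate. They were picked by gene symbol from a written list, whose rule used no level, although earlier results of these data were known when it was written, and made up 31 of the 25124 genes in the expression table. All 31 passed the filter of a mean of at least 0.5 FPKM (reads scaled to transcript length and library size), as did 11700 genes in all. RNA was sequenced from 8 cultures of mouse osteoclast precursor cells, 2 in each of 4 groups: no PRDX1 + no RANKL ("neither agent"), PRDX1 + no RANKL ("PRDX1 alone"), no PRDX1 + RANKL ("RANKL alone") and PRDX1 + RANKL ("both"). The precursors were adherent bone marrow cells, precultured for 16 h in 5 ng/ml M-CSF and then grown for 3 days in 30 ng/ml M-CSF. RANKL, the cytokine that drives osteoclast formation, was used at 100 ng/ml, and PRDX1, a peroxidase of the peroxiredoxin family added as recombinant protein made in E. coli, at 200 nM. All 4 groups had 30 ng/ml M-CSF during the treatment, and RNA was taken after 48 h. Below, untreated means M-CSF without either agent. The sample labels give C57BL/6 mice aged 6 to 8 weeks, whereas the cell culture methods of the study name male ICR mice. Nothing in the labels says whether the cultures of a group came from separate animals, so the p-values measure only the spread between these cultures, which may be technical.

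The pyruvate dehydrogenase complex turns pyruvate into acetyl-CoA inside mitochondria, and it is switched off by pyruvate dehydrogenase kinases and on by phosphatases. The TCA cycle oxidises acetyl-CoA in a ring of reactions that yield NADH, and succinate dehydrogenase, its membrane-bound enzyme, passes electrons directly to the respiratory chain. Osteoclasts are rich in mitochondria, and oxidative metabolism is known to increase as precursors of the macrophage lineage differentiate into them. The comparisons below ask what RANKL, PRDX1 and their combination did to the transcripts of this pathway.

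The libraries held 24542578 to 41712973 reads on genes, and the 10 most abundant genes took 4.75% to 9.69% of them. All 8 macrophage markers checked were present, with a summed level of 15718 to 17485 FPKM with neither agent, 16547 to 17009 with PRDX1 alone, 9857 to 10278 with RANKL alone and 13421 to 13821 with both. The summed level of 10 osteoclast markers (such as Ctsk and Acp5) was 44.8 to 45.4 FPKM with neither agent, 88.1 to 92.4 with PRDX1 alone, 1884 to 1987 with RANKL alone and 251 to 259 with both. These sums separated all 4 groups, but the single osteoclast markers did not all do so. From neither agent to PRDX1 alone, the mean of Acp5 went from 23.6 to 53.7 FPKM and that of Atp6v0d2 from 6.99 to 22.8. The means of Nfatc1 (10.3 to 7.70) and Itgb3 (1.88 to 0.662) went down instead. Ctsk overlapped between these groups at 0.324 FPKM or less, and Calcr was at 0 in both. Neutrophil markers (6 of 8 reaching 0.5 FPKM) summed to 8.19 to 12.2 FPKM with neither agent, 38.8 to 43.3 with PRDX1 alone, 16.2 to 16.6 with RANKL alone and 34.0 to 37.5 with both. Stromal and osteoblast markers (7 of 8 reaching 0.5 FPKM) summed to 8.93 to 11.7, 17.9 to 18.3, 8.94 to 11.0 and 17.6 to 21.1 FPKM in the same order, and dendritic cell markers (5 of 6) to 1.99 to 2.26, 6.08 to 6.30, 3.93 to 4.39 and 8.91 to 9.05 FPKM. No group's B cell markers (2 of 5 reaching 0.5 FPKM) summed to more than 2.13 FPKM, T and NK cell markers (1 of 7) to more than 1.46, or erythroid markers (0 of 4) to more than 0.18. Cd3e and Ncr1 were at 0 in all 8 libraries. Most of the neutrophil sum came from S100a8 and S100a9, at means of 17.2 and 19.5 FPKM with PRDX1 alone. Ly6g, another neutrophil marker, was at no more than 0.279 FPKM in any library. These marker levels moved with the treatments, and their part in the results below was not tested. In bulk RNA, fewer cells of a type and less RNA per cell cannot be told apart.

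The most abundant member was Mdh2, mitochondrial malate dehydrogenase, with a mean of 205 FPKM over the 8 libraries, followed by Sdhd at 137 FPKM, Sdhb at 133 FPKM, Cs at 113 FPKM and Sdhc at 104 FPKM. The least abundant were Pdk1 at 5.59 FPKM, Pdp1 at 5.50 FPKM, Pdk2 at 2.09 FPKM and Pcx at 1.05 FPKM. Pcx rested on 84 to 238 reads per library and Pdk2 on 117 to 217, against 6115 to 14461 for Mdh2. The 31 members together summed to 1590 FPKM in each library with neither agent, 1437 and 1425 with PRDX1 alone, 2492 and 2507 with RANKL alone, and 1645 and 1625 with both. They took 0.355% and 0.358% of the reads on genes with neither agent, 0.318% and 0.314% with PRDX1 alone, 0.550% in each library with RANKL alone, and 0.369% and 0.365% with both. The RANKL-alone cultures thus stood above the 3 other groups, which lay close together.

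**Figure D1:**
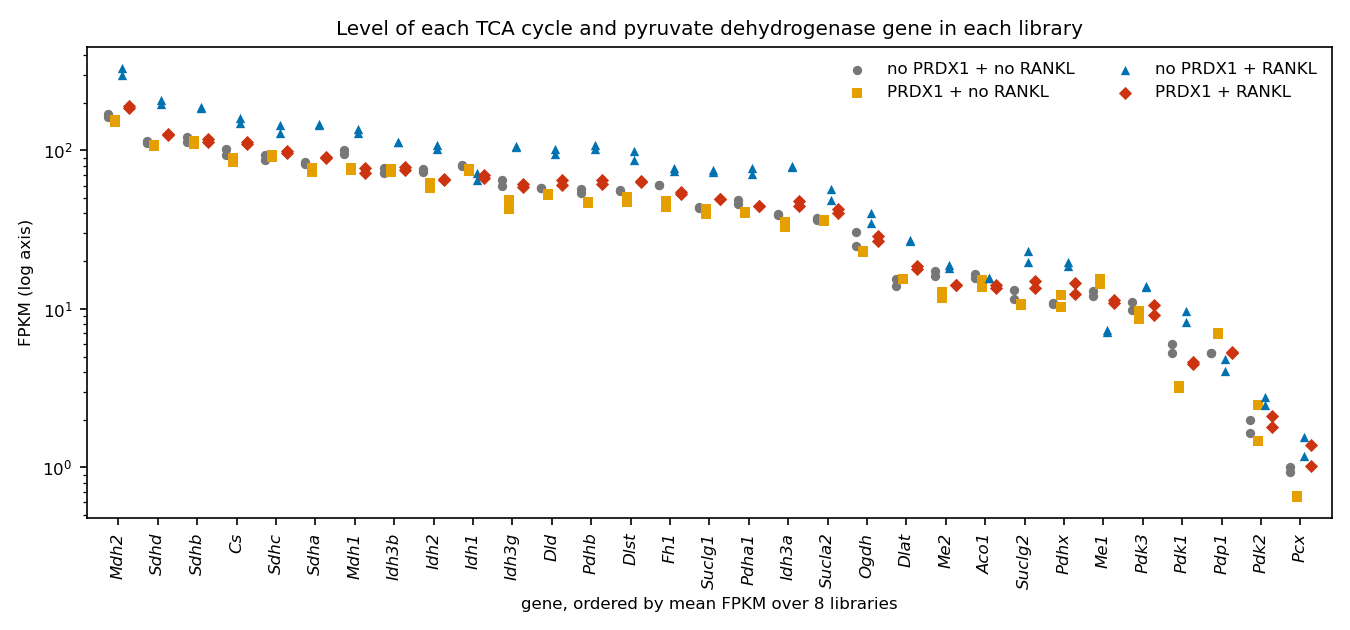
Level of the 31 members in the 8 libraries (points, FPKM on a log axis), ordered by mean level, with a colour and shape for each of the 4 treatment groups. In most members the RANKL-alone libraries stand above the others, as for Mdh2 (300 and 329 FPKM against 152 to 190 in the other 6 libraries), whereas Me1 is lowest there (7.14 and 7.38 FPKM).

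Differences are given as log2(FPKM + 1) with the standard error (SE) of the limma fit and a Benjamini-Hochberg adjusted p over the 11700 genes tested. A gene was said to rise or fall where the adjusted p was under 0.05 and the fold change at least 1.5. RANKL alone raised 18 of the 31 members and lowered 1 against neither agent, while 11.8% of all genes tested rose and 9.96% fell. The median difference of the members was 0.59 and that of all genes 0.10. Both RANKL-alone libraries lay above both untreated ones for 27 of the 31 members, as they did for 47.7% of all genes. Adding PRDX1 to RANKL lowered 12 of the 31 members and raised 0 (limma; 28 had an unadjusted p under 0.05 in either direction), while 4.17% of all genes fell and 6.03% rose. An adjusted p under 0.05 was found for 26 members by RANKL alone, against 59.9% of all genes. By PRDX1 under RANKL it was found for 26 members, against 42.5% of all genes. The median difference of the members was -0.54 and that of all genes -0.057. Both libraries with both agents lay below both RANKL-alone libraries for 27 of the 31 members, against 43.1% of all genes. A fit by voom on the reads recovered from the FPKM lowered 13 members and raised 1. These 2 comparisons share the RANKL-alone libraries, so a high value in them enters both, and the values below are given side by side.

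**Figure D2:**
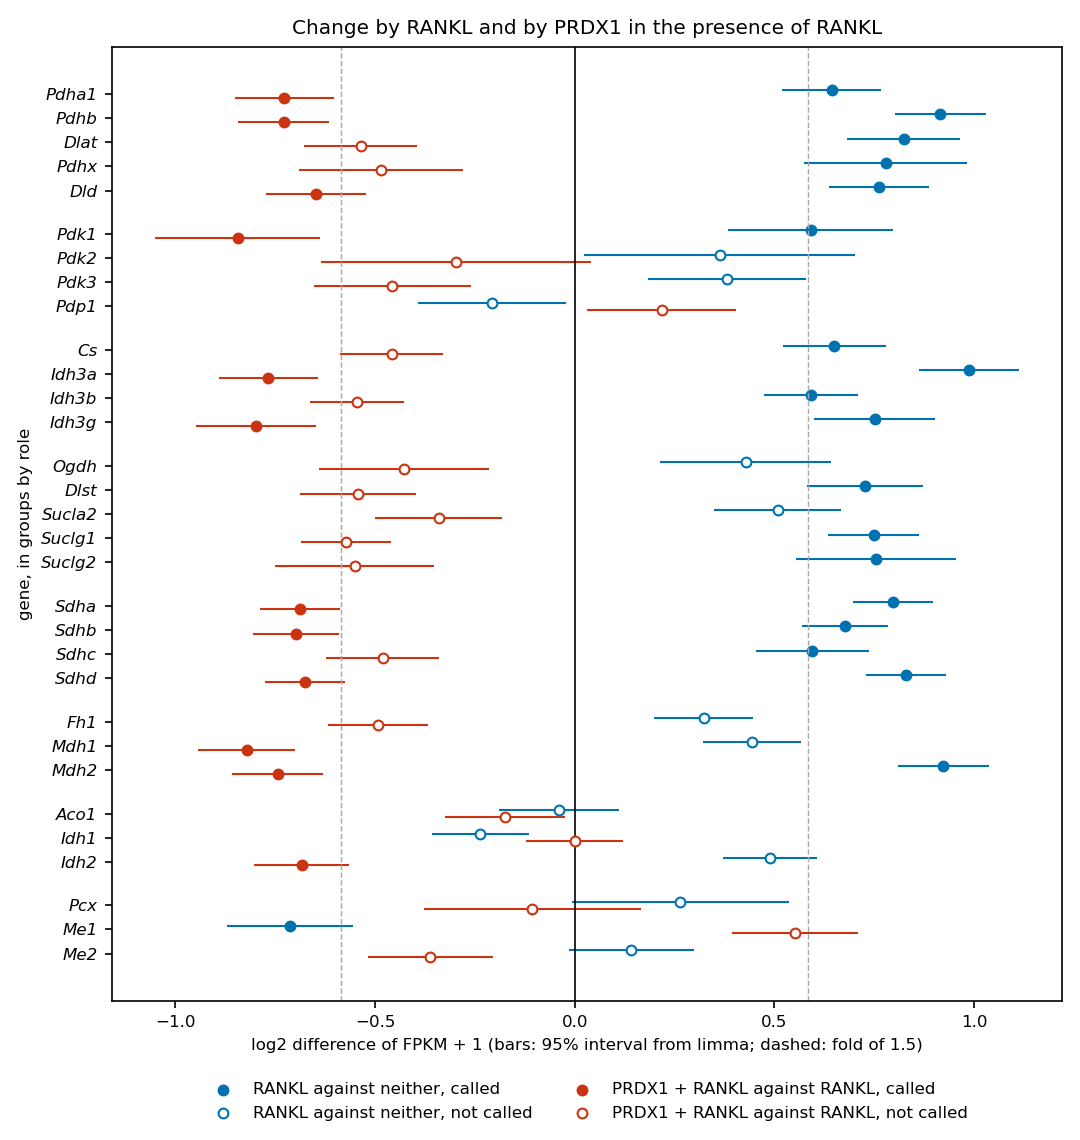
Log2 difference of FPKM + 1 (points, filled where called) with its 95% confidence interval (bars) for each member in RANKL alone against neither agent and in both agents against RANKL alone, with the 1.5-fold threshold drawn as dashed lines. Idh3a is highest on the RANKL side (0.99), and Pdk1 is lowest on the PRDX1 side (-0.84).

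Within the pyruvate dehydrogenase complex, RANKL alone raised 5 of 5 genes and the addition of PRDX1 lowered 3 of 5 (medians 0.78 and -0.65). Pdha1, the catalytic alpha subunit of the E1 enzyme, was at 48.5 and 45.9 FPKM with neither agent, 40.6 and 40.7 with PRDX1 alone, 77.5 and 71.2 with RANKL alone, and 44.6 and 44.3 with both. The RANKL-alone libraries were the highest, and those with both agents lay between those with PRDX1 alone and the untreated ones. Pdha1 rose by RANKL by 0.64 (SE 0.055, adjusted p = 4.29e-06) and changed by -0.73 (SE 0.055, adjusted p = 4.50e-06) when PRDX1 was added (limma). Pdhb, the E1 beta subunit, was at 54.2 and 56.8 FPKM with neither agent, 46.6 and 47.1 with PRDX1 alone, 108 and 103 with RANKL alone, and 64.8 and 61.7 with both. Its RANKL-alone libraries did not overlap with any other group. The Pdhb differences were 0.91 (SE 0.051, adjusted p = 1.80e-07) by RANKL and -0.73 (SE 0.051, adjusted p = 2.57e-06) by PRDX1 under RANKL (limma). Dld, the E3 subunit shared with the oxoglutarate dehydrogenase complex, was at 58.1 and 57.5 FPKM with neither agent, 53.3 and 52.0 with PRDX1 alone, 103 and 95.1 with RANKL alone, and 65.2 and 60.2 with both. Dld rose by RANKL by 0.76 (SE 0.056, adjusted p = 1.36e-06) and fell with PRDX1, at -0.65 (SE 0.056, adjusted p = 1.11e-05) (limma), although the latter missed the fold threshold at -0.58 under quantile normalization and at -0.56 under upper quartile scaling. Dlat, the E2 acetyltransferase core, was at 14.0 and 15.5 FPKM with neither agent, 15.4 and 15.5 with PRDX1 alone, 26.6 and 27.1 with RANKL alone, and 18.7 and 17.8 with both. RANKL raised Dlat by 0.82 (SE 0.063, adjusted p = 1.93e-06), and the difference by PRDX1 of -0.54 (SE 0.063, adjusted p = 9.57e-05) stayed short of the fold threshold (limma). Pdhx, the E3-binding protein, rose by RANKL by 0.78 (SE 0.092, adjusted p = 4.31e-05), with a PRDX1 difference of -0.48 (SE 0.092, adjusted p = 0.00193) that was not called (limma). Without replicate 1 of the cultures with both agents the latter was -0.59 and passed. The RANKL call of Pdha1 was lost without replicate 1 of the RANKL-alone cultures (0.58) and by quantile normalization (0.57). Exons of Pdha1 on chromosome X share 603 bases with Map3k15 on the other strand, and reads were counted on both strands, so reads of these genes cannot be told apart there. Map3k15 was at 7.81 to 8.08 FPKM with neither agent, 7.71 to 7.72 with PRDX1 alone, 11.6 to 12.0 with RANKL alone and 8.74 to 8.98 with both.

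Among the 4 regulators of the complex, RANKL raised 1 and the addition of PRDX1 lowered 1, and both were Pdk1. Pdk1, an inhibitory kinase of pyruvate dehydrogenase and a well-known target of hypoxia-inducible factor 1, was at 5.98 and 5.26 FPKM with neither agent, 3.17 and 3.28 with PRDX1 alone, 9.70 and 8.26 with RANKL alone, and 4.64 and 4.45 with both. Its highest libraries were those with RANKL alone and its lowest those with PRDX1 alone. Pdk1 rose by RANKL by 0.59 (SE 0.093, adjusted p = 0.000322) and fell with PRDX1 under RANKL, at -0.84 (SE 0.093, adjusted p = 5.69e-05), the lowest value of the 31 members (limma). The rise was just past the fold threshold and was lost without replicate 2 of the untreated cultures (0.51), without replicate 1 of the RANKL-alone cultures (0.49), by quantile normalization (0.51) and by upper quartile scaling (0.54). Pdk3, another inhibitory kinase, differed by 0.38 (SE 0.088, adjusted p = 0.00398) and -0.46 (SE 0.088, adjusted p = 0.00222) in these comparisons and was not called (limma). Pdk2, also inhibitory, differed by 0.36 (SE 0.15, adjusted p = 0.0617) and -0.30 (SE 0.15, adjusted p = 0.142) (limma). Pdp1, the phosphatase that activates the complex, ran the other way in sign, at -0.21 (SE 0.083, adjusted p = 0.0538) by RANKL and 0.22 (SE 0.083, adjusted p = 0.0589) by PRDX1 under RANKL, neither of which was called (limma).

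Citrate synthase and the 3 subunits of the NAD-dependent isocitrate dehydrogenase were all raised by RANKL (4 of 4, median 0.70), and 2 of 4 were lowered when PRDX1 was added (median -0.66). Idh3a, the catalytic alpha subunit, was at 38.9 and 40.0 FPKM with neither agent, 35.1 and 32.7 with PRDX1 alone, 79.9 and 78.4 with RANKL alone, and 47.7 and 44.5 with both. The RANKL-alone level was close to 2-fold the untreated one. Idh3a differed by 0.99 (SE 0.056, adjusted p = 1.99e-07) by RANKL, the highest value of the 31 members, and by -0.77 (SE 0.056, adjusted p = 3.42e-06) by PRDX1 under RANKL (limma). Idh3g, a regulatory subunit, was at 65.4 and 59.3 FPKM with neither agent, 43.0 and 48.4 with PRDX1 alone, 106 and 105 with RANKL alone, and 58.6 and 61.8 with both. Its RANKL-alone libraries were the highest, and the PRDX1-alone libraries lay below the untreated ones. The Idh3g differences were 0.75 (SE 0.068, adjusted p = 6.18e-06) and -0.80 (SE 0.068, adjusted p = 9.76e-06) (limma). Idh3b, the other non-catalytic subunit, rose by RANKL by 0.59 (SE 0.052, adjusted p = 5.43e-06) and differed by -0.55 (SE 0.052, adjusted p = 2.29e-05) by PRDX1, short of the fold threshold (limma). The rise of Idh3b was lost without replicate 2 of the untreated cultures (0.53), by quantile normalization (0.54) and by upper quartile scaling (0.54). Cs, which joins acetyl-CoA and oxaloacetate into citrate, rose by 0.65 (SE 0.058, adjusted p = 5.38e-06) and was not called with PRDX1, at -0.46 (SE 0.058, adjusted p = 0.000141) (limma). The rise of Cs was lost by quantile normalization (0.56), which left 2 of the 4 genes called.

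In the next steps of the cycle, the oxoglutarate dehydrogenase complex and succinyl-CoA synthetase, RANKL raised 3 of 5 genes and PRDX1 lowered 0 of 5 under RANKL by the limma calls, with medians of 0.73 and -0.54. All 5 had an adjusted p under 0.05 in the second comparison, and it was the fold threshold that they missed (by voom 1, Suclg1, passed it). Dlst, the E2 succinyltransferase, rose by RANKL by 0.73 (SE 0.065, adjusted p = 5.90e-06) and differed by -0.54 (SE 0.065, adjusted p = 0.000104) with PRDX1 (limma). Suclg1, the shared alpha subunit of succinyl-CoA synthetase, rose by 0.75 (SE 0.051, adjusted p = 7.56e-07) and differed by -0.57 (SE 0.051, adjusted p = 1.32e-05) with PRDX1 (limma). Suclg2, the GTP-forming beta subunit, rose by 0.75 (SE 0.089, adjusted p = 4.40e-05) and differed by -0.55 (SE 0.089, adjusted p = 0.000744) (limma). Ogdh, the E1 subunit of the complex, was not called in either, at 0.43 (SE 0.095, adjusted p = 0.00312) and -0.43 (SE 0.095, adjusted p = 0.00500) (limma). Sucla2, the ATP-forming beta subunit, was not called either, at 0.51 (SE 0.071, adjusted p = 0.000146) and -0.34 (SE 0.071, adjusted p = 0.00340) (limma). Some of these calls turned on single libraries. Without replicate 1 of the RANKL-alone cultures the PRDX1 difference of Dlst was -0.64 and passed. Without replicate 2 of them those of Suclg1 (-0.60) and Suclg2 (-0.66) passed, as did the RANKL rise of Sucla2 (0.62). Suclg2 also passed without replicate 1 of the cultures with both agents (-0.62).

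All 4 subunits of succinate dehydrogenase rose by RANKL (median 0.74), and 3 of 4 fell when PRDX1 was added (median -0.68). Sdha, the flavoprotein that oxidises succinate, was at 84.3 and 82.4 FPKM with neither agent, 73.6 and 77.1 with PRDX1 alone, 147 and 144 with RANKL alone, and 89.5 and 90.4 with both. Sdhb, the iron-sulfur subunit, was at 121 and 113 FPKM with neither agent, 110 and 115 with PRDX1 alone, 186 and 189 with RANKL alone, and 117 and 113 with both. For Sdhb the untreated, PRDX1-alone and doubly treated libraries lay within 110 to 121 FPKM, and those with RANKL alone stood apart. The differences of Sdha were 0.80 (SE 0.044, adjusted p = 1.80e-07) by RANKL and -0.69 (SE 0.044, adjusted p = 1.54e-06) by PRDX1 under RANKL, and those of Sdhb 0.68 (SE 0.048, adjusted p = 1.11e-06) and -0.70 (SE 0.048, adjusted p = 2.37e-06) (limma). Sdhd, a membrane anchor subunit, was at 115 and 112 FPKM with neither agent, 108 and 106 with PRDX1 alone, 208 and 196 with RANKL alone, and 127 and 126 with both. Its RANKL-alone libraries were again the highest by a wide margin. Sdhd rose by 0.83 (SE 0.045, adjusted p = 1.48e-07) and fell with PRDX1, at -0.68 (SE 0.045, adjusted p = 1.85e-06) (limma). Sdhc, the other anchor, rose just past the threshold by 0.59 (SE 0.063, adjusted p = 2.01e-05) and was not called with PRDX1, at -0.48 (SE 0.063, adjusted p = 0.000191) (limma). The rise of Sdhc was lost without replicate 1 of the untreated cultures (0.54), without replicate 2 of the RANKL-alone cultures (0.50), by quantile normalization (0.51) and by upper quartile scaling (0.54).

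Promoter sequence from RefSeq (assembly GRCm38.p6, the mm10 genome) was found for 27 of the 31 members, as 37 windows of 300 bases that run from 250 bases before to 50 bases after an annotated start. The 4 without a window were Idh3a, Sdhc, Pdp1 and Me2. The windows were searched on both strands for 4 short motifs of factors known to act on mitochondrial and metabolic genes: GCGCATG (a core of NRF1 sites), AAGGTCA (a core of ERR receptor sites), CCGGAAG (an ETS core, as bound by GABPA) and CACGTG (the E box). They do not overlap one another in the sequences shown. The shown promoters are those of the members lowered by PRDX1 under RANKL that held at least 1 motif, with motif letters in capitals, written 5′ to 3′ on the strand of the gene.
Sdhb, chr4:140961021-140961320, plus strand: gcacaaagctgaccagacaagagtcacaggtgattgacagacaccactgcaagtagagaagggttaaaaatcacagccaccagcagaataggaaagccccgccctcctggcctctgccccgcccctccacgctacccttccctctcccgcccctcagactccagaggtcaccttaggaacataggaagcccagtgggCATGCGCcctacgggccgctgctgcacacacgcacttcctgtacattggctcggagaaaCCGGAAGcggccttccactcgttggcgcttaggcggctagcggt
Sdhd, chr9:50603800-50604099, minus strand: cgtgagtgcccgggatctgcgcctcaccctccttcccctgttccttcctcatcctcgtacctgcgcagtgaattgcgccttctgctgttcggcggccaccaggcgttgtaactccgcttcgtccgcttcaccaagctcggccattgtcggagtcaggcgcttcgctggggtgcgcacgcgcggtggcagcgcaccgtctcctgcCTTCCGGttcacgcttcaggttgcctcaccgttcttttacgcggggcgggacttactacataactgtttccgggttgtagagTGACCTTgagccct
Idh3g, chrX:73786848-73787147, minus strand: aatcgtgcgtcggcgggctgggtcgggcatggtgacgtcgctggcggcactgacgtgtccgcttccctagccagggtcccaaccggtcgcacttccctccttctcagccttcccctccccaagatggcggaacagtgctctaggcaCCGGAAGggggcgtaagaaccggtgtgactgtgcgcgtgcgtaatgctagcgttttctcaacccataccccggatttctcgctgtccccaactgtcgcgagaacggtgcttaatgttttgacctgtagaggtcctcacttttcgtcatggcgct
In the Sdhb window the NRF1 letters begin 53 bases before the start and the ETS letters 6 bases after it (positions -53 and 6). In the Sdhd window the ETS letters lie at -46 and the ERR letters at 36, and in the Idh3g window the ETS letters lie at -104. Over the 37 member windows, 3 (8.11%) held the NRF1 letters, against 7.01% of the windows of genes tested and 3.91% of the 32851 windows of all genes. The ERR letters were in 2 windows (5.41%, against 3.25% and 4.72%), the ETS letters in 5 (13.5%, against 18.6% and 8.86%) and the E box in 5 (13.5%, against 10.3% and 7.15%). Some windows of 1 gene overlap, as for Ogdh, so they are not independent. The 12 windows of 11 lowered members held the NRF1, ERR, ETS and E box letters in 1, 1, 3 and 0 cases. These matches describe letters in the windows only and are not measured binding sites.

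Of fumarase and the malate dehydrogenases, RANKL raised 1 of 3 and the addition of PRDX1 lowered 2 of 3 (medians 0.44 and -0.74). Mdh2, which regenerates oxaloacetate in the mitochondrion, was at 162 and 169 FPKM with neither agent, 156 and 152 with PRDX1 alone, 300 and 329 with RANKL alone, and 185 and 190 with both. Both RANKL-alone libraries were far above the other 6. Mdh2 rose by 0.92 (SE 0.051, adjusted p = 1.72e-07) and fell with PRDX1, at -0.74 (SE 0.051, adjusted p = 2.26e-06) (limma). Mdh1, the cytosolic enzyme of the malate-aspartate shuttle, was at 101 and 94.5 FPKM with neither agent, 75.6 and 77.8 with PRDX1 alone, 137 and 129 with RANKL alone, and 77.4 and 72.4 with both. Here the libraries with both agents lay below the untreated ones, unlike those of Mdh2. Mdh1 differed by 0.44 (SE 0.055, adjusted p = 5.80e-05) by RANKL, which was not called, and fell by PRDX1 under RANKL, at -0.82 (SE 0.055, adjusted p = 1.82e-06) (limma). Fh1, fumarase, was not called in either comparison, at 0.32 (SE 0.056, adjusted p = 0.000625) and -0.49 (SE 0.056, adjusted p = 7.11e-05) (limma). Exons of Mdh1 share 52 bases with Wdpcp on the other strand, a gene with a mean of 1.11 FPKM.

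Aconitase 1 and the NADP-dependent isocitrate dehydrogenases did not rise by the limma calls (0 of 3, also by voom; Idh1 and Idh2 had an adjusted p under 0.05), and 1 of 3 fell when PRDX1 was added. Idh2, the mitochondrial NADP enzyme, was at 73.0 and 76.2 FPKM with neither agent, 62.4 and 58.0 with PRDX1 alone, 103 and 108 with RANKL alone, and 65.5 and 64.6 with both. As for Mdh1, its libraries with both agents were lower than the untreated ones. The differences of Idh2 were 0.49 (SE 0.053, adjusted p = 2.27e-05) by RANKL, not called, and -0.68 (SE 0.053, adjusted p = 5.07e-06) by PRDX1 under RANKL (limma). Idh1, the cytosolic NADP enzyme, was at 81.3 and 80.1 FPKM with neither agent, 76.1 and 73.9 with PRDX1 alone, 71.5 and 65.3 with RANKL alone, and 70.0 and 66.7 with both. Its RANKL-alone and doubly treated libraries overlapped. Idh1 differed by -0.24 (SE 0.055, adjusted p = 0.00383) and -0.00033 (SE 0.055, adjusted p = 0.996) (limma), and the sign of the latter turned under other scalings. Aco1, the cytosolic aconitase that also serves as the iron sensor IRP1, differed by -0.039 (SE 0.067, adjusted p = 0.642) and -0.18 (SE 0.067, adjusted p = 0.0591) (limma).

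Pyruvate carboxylase and the malic enzymes included the only member lowered by RANKL alone. Me1, the cytosolic malic enzyme that yields NADPH, was at 12.1 and 13.0 FPKM with neither agent, 15.5 and 14.3 with PRDX1 alone, 7.14 and 7.38 with RANKL alone, and 10.8 and 11.4 with both. RANKL alone, the highest group for most members, was the lowest here, and PRDX1 alone was the highest. Me1 fell by RANKL, at -0.71 (SE 0.071, adjusted p = 1.24e-05), and the PRDX1 difference of 0.55 (SE 0.071, adjusted p = 0.000165) was just short of the fold threshold (limma). It passed, at 0.61, 0.63 and 0.61, with a pseudocount of 0.1, under upper quartile scaling and by voom, and at 0.59 without replicate 1 of the cultures with both agents. Me2, the mitochondrial NAD-dependent malic enzyme, differed by 0.14 (SE 0.070, adjusted p = 0.106) and -0.36 (SE 0.070, adjusted p = 0.00219) and was not called (limma). Pcx, which makes oxaloacetate from pyruvate, lay between 0.653 and 1.55 FPKM, and its differences were 0.26 (SE 0.12, adjusted p = 0.0856) and -0.11 (SE 0.12, adjusted p = 0.518) (limma).

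**Figure D3:**
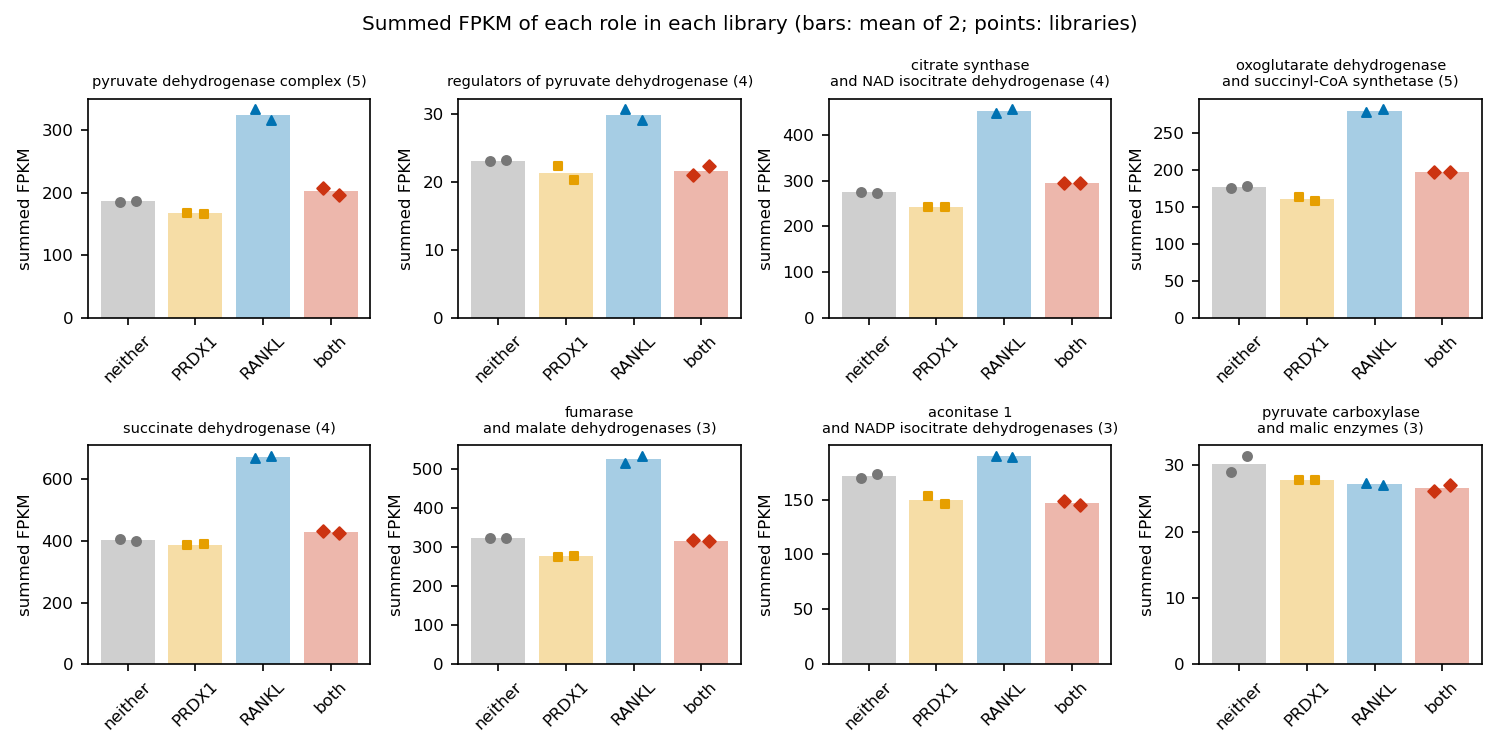
Summed FPKM of the members of each of the 8 roles, 1 panel per role, with bars for the mean of the 2 libraries of a group and points for the libraries. The 4 succinate dehydrogenase genes sum to 407 and 401 with neither agent, 385 and 389 with PRDX1 alone, 669 and 676 with RANKL alone and 432 and 426 with both, whereas pyruvate carboxylase and the malic enzymes show no such peak with RANKL alone.

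PRDX1 without RANKL lowered 1 of the 31 members and raised 0 (limma; 17 had an unadjusted p under 0.05 in either direction, and voom called 0 higher and 1 lower). Over all genes 1.99% fell and 3.80% rose, so 1 of 31 is close to this background. The median difference was -0.15 over the members and -0.039 over all genes. The call was Pdk1, which fell by PRDX1 alone, at -0.65 (SE 0.093, adjusted p = 0.000627) (limma). Without replicate 1 of the untreated cultures its value was -0.57 and short of the fold threshold. A further 11 members had an adjusted p under 0.05 without reaching 1.5-fold, of which 9 were negative, and 29.8% of all genes had an adjusted p under 0.05. Idh3g was at -0.44 (SE 0.068, adjusted p = 0.000962), Me2 at -0.42 (SE 0.070, adjusted p = 0.00151) and Fh1 at -0.40 (SE 0.056, adjusted p = 0.000557) (limma). Mdh1 was at -0.34 (SE 0.055, adjusted p = 0.00116) and Idh2 at -0.31 (SE 0.053, adjusted p = 0.00189) (limma). The positive ones were Pdp1, at 0.35 (SE 0.083, adjusted p = 0.0113), and Me1, at 0.23 (SE 0.071, adjusted p = 0.0336) (limma).

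With both agents against neither, 0 members rose and 0 fell by limma at the thresholds above, while 7.50% of all genes rose and 5.34% fell; voom also called 0 in each direction. At an unadjusted p under 0.05, 20 members differed. The median difference was 0.064 over the members and 0.032 over all genes. An adjusted p under 0.05 was found for 16 members, 9 positive and 7 negative, and for 44.2% of all genes, so the count is near this background. Dlat was at 0.29 (SE 0.063, adjusted p = 0.00447) and Pdhx at 0.29 (SE 0.092, adjusted p = 0.0261) (limma). Idh3a was at 0.22 (SE 0.056, adjusted p = 0.00976). The negative ones included Mdh1, at -0.38 (SE 0.055, adjusted p = 0.000322), and Pdk1, at -0.25 (SE 0.093, adjusted p = 0.0490) (limma). Within the cultures that had PRDX1, RANKL raised 0 and lowered 0 members by limma, against 4.52% and 3.98% of all genes. At an unadjusted p under 0.05, 23 members differed. An adjusted p under 0.05 was found for 18 members, 16 positive and 2 negative, and for 40.6% of all genes. By voom 1 member, Pcx, rose (0.86). The median was 0.23 over the members and 0.070 over all genes. Pdhb was at 0.43 (SE 0.051, adjusted p = 0.000133), Idh3a at 0.43 (SE 0.056, adjusted p = 0.000219) and Pcx at 0.40 (SE 0.12, adjusted p = 0.0238) (limma). The negative ones with an adjusted p under 0.05 were Me1, at -0.39 (SE 0.071, adjusted p = 0.00169), and Pdp1, at -0.34 (SE 0.083, adjusted p = 0.00954) (limma).

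**Figure D4:**
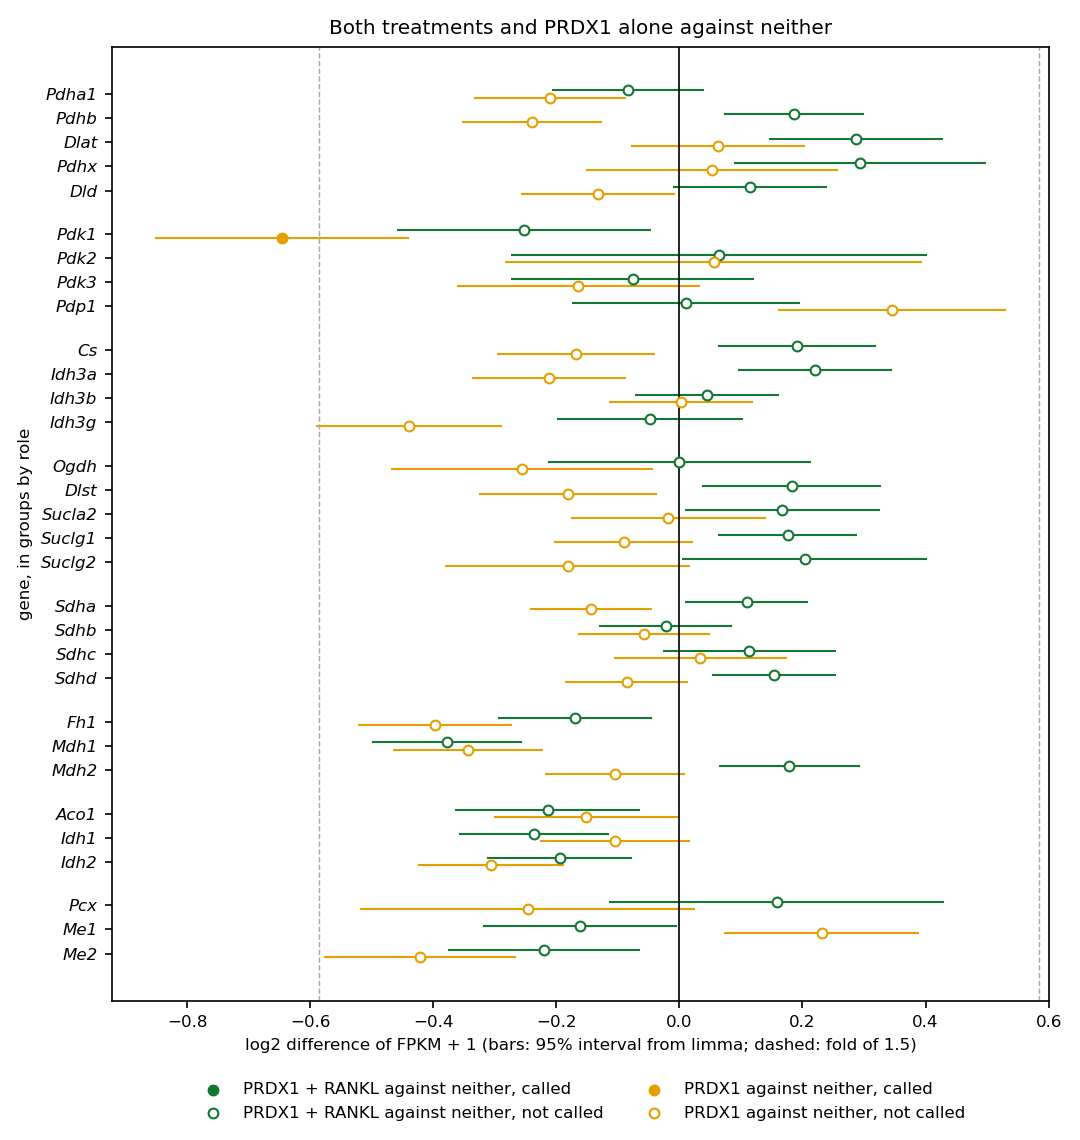
Log2 difference of FPKM + 1 (points, filled where called) with its 95% confidence interval (bars) of each member for both agents against neither (green) and for PRDX1 alone against neither (yellow), with the 1.5-fold threshold dashed. The only filled point is Pdk1 with PRDX1 alone (-0.65).

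Whether PRDX1 acted differently with and without RANKL was tested as the interaction, the PRDX1 difference under RANKL minus that without it. It was called negative for 4 of the 31 members and positive for 0 (limma; 22 had an unadjusted p under 0.05, and voom called 4 and 0), against 4.35% and 4.50% of all genes. The median was -0.37 over the members and -0.0095 over all genes. The called members were Sdhb, at -0.64 (SE 0.068, adjusted p = 0.000126), Mdh2, at -0.64 (SE 0.072, adjusted p = 0.000184), Dlat, at -0.60 (SE 0.090, adjusted p = 0.00106), and Sdhd, at -0.59 (SE 0.064, adjusted p = 0.000135) (limma). PRDX1 left Sdhb at 110 and 115 FPKM from 121 and 113 without RANKL, and at 117 and 113 from 186 and 189 with it. Leaving out single libraries moved the count of negative calls between 2 (without replicate 2 of the cultures with both agents, where Dlat was at -0.56 and Sdhd at -0.58) and 7 (without replicate 2 of the PRDX1-alone cultures). Sdhb was called in all 15 alternatives run. Sdhd lost its call in 6 of them, by quantile normalization, by upper quartile scaling and without each of 4 libraries (-0.55 to -0.58): replicate 2 of the untreated, replicate 1 of the PRDX1-alone, replicate 1 of the RANKL-alone and replicate 2 of the doubly treated cultures. Dlat lost it in 3, by upper quartile scaling, without replicate 1 of the untreated cultures (-0.53) and without replicate 2 of the doubly treated ones. Mdh2 lost it in 1, without replicate 2 of the RANKL-alone cultures (-0.57). Of the remaining members, 16 had an adjusted p under 0.05 short of the fold threshold, 15 of them negative and 1, Me1, positive (0.32 (SE 0.10, adjusted p = 0.0441); limma). Of all genes, 23.1% had an adjusted p under 0.05 in the interaction. Pdk1, which PRDX1 lowered in both settings, had an interaction that was not called.

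A wider list of 42 genes of the pathway, not among the 31, held paralogs and neighbouring enzymes, assembly factors and enzymes of the lipoyl cofactor, and carriers and enzymes by which carbon enters. Of these, 33 passed the filter. Pdk4, Pdha2, Csl, Ogdhl, Dhtkd1, Mdh1b, Me3, Pck1 and Slc25a21 did not. RANKL raised 7 of 33 and lowered 1, with a median of 0.37, against 11.8% and 9.96% of all genes and a median of 0.10. PRDX1 under RANKL lowered 5 and raised 1, with a median of -0.24, against 4.17% and 6.03% of all genes and a median of -0.057. PRDX1 without RANKL raised 2 and lowered 1, with a median of -0.11, against 3.80% and 1.99% of all genes and a median of -0.039. Those that fell with PRDX1 under RANKL included Ldhb, a lactate dehydrogenase subunit (-1.0), Sdhaf1, an assembly factor of succinate dehydrogenase (-0.64), Isca1, which works in iron-sulfur cluster assembly (-0.64), and Mpc2, a subunit of the mitochondrial pyruvate carrier (-0.62). Ldhb was instead raised by PRDX1 without RANKL, by 0.81 (SE 0.12, adjusted p = 0.000975), and its interaction was -1.81 (SE 0.18, adjusted p = 7.15e-05) (limma). Acod1, which diverts cis-aconitate from the cycle to itaconate in activated macrophages, was at 1.53 and 1.23 FPKM with neither agent, 9.49 and 10.4 with PRDX1 alone, 2.37 and 2.76 with RANKL alone, and 14.8 and 14.8 with both. It was high in the PRDX1-treated libraries, with and without RANKL. Acod1 rose with PRDX1 by 2.15 (SE 0.093, adjusted p = 9.07e-08) under RANKL and by 2.20 (SE 0.093, adjusted p = 2.11e-07) without it (limma). Acss1, which makes acetyl-CoA from acetate in mitochondria, was at 11.6 and 12.0 FPKM with neither agent, 5.99 and 5.11 with PRDX1 alone, 1.22 and 1.63 with RANKL alone, and 1.62 and 2.09 with both. Acss1 fell by RANKL alone, at -2.41 (SE 0.12, adjusted p = 6.16e-08), and by PRDX1 alone, at -0.97 (SE 0.12, adjusted p = 0.000192) (limma).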

How the data were processed

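Reads were 100 bp paired-end from total RNA. The submitters' processing notes name HISAT2, HOMER and DESeq2 and the genome mm10. Per the file headers, the authors counted reads on RefSeq exons on both strands with HOMER, kept 1 transcript per gene, and deposited FPKM for 25124 genes. FPKM is not a count, so log2(FPKM + 1) was fitted with limma 3.58.1 in R 4.3.3, as 1 model of all groups (4 residual degrees of freedom) whose variance prior followed the mean level. Genes averaging at least 0.5 FPKM (11700) entered. The p-values were adjusted by the Benjamini-Hochberg method over all genes tested, and a call required both adjusted p under 0.05 and a change of 1.5-fold or more. Since FPKM times transcript length came in whole steps of a fixed size in each library (100% of genes checked, within 0.05 of a read beyond rounding), reads per gene were recovered (24542578 to 41712973 per library), and the totals used for scaling were 27284654 to 46171866. Replicates differed by more than sampling noise (chi-square per degree of freedom 4.71 to 9.58). There were 0 unused columns of sample values.

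The members, lists and tests were chosen with earlier results of these data known. The naming rule was that all 31 members are given by role. Values in every library are given for members called with PRDX1 under RANKL or in the interaction and for the 3 most abundant. Idh1, Me1 and, outside the list, Acod1, Acss1 and Ldhb were added after their values were seen. Some genes of the wider lists are not reported here. An exact permutation test of 2 against 2 cannot give a two-sided p below 0.333, so none was used. Alternatives were another pseudocount, filter, scaling or set of groups, a replicate term, leaving out each library, and voom on the recovered reads, the last chosen after seeing the data.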

Additional observations from a re-analysis of the deposited data

Results flagged for a closer look

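For 4 members the PRDX1 difference with RANKL differed from that without RANKL by the test of the difference itself (the interaction term of the limma fit, adjusted over all 11700 genes). Sdhb had an interaction of -0.64 (adjusted p = 0.000126), with PRDX1 differences of -0.70 with RANKL and -0.057 without it. Mdh2 had -0.64 (adjusted p = 0.000184), from -0.74 and -0.10. For Dlat it was -0.60 (adjusted p = 0.00106), from -0.54 and 0.062, and for Sdhd -0.59 (adjusted p = 0.000135), from -0.68 and -0.086. Over 15 alternatives the call was lost in 0 for Sdhb, 1 for Mdh2, 3 for Dlat and 6 for Sdhd, each time by missing the fold threshold.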

How the results depend on the processing

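The alternatives were a pseudocount of 0.1, no filter or a mean of at least 1 FPKM, quantile normalization, upper quartile scaling, a fit of only the groups compared, a replicate block, each library left out, and voom on the recovered reads. The planned fits by count models were not run, since the deposited values are FPKM. Voom on the recovered reads was used in their place. Of the counts and medians over the members, 272 values stayed and 13 moved. A count stayed if it was within 1.5 times its main value, or 0 in both. A median stayed if it lay within 0.0655 of its main value, the SD of a difference between single libraries of a group. For PRDX1 with RANKL the members lowered numbered 11 by quantile or upper quartile scaling, 13 by voom and 12 to 14 with single libraries left out. The members raised there numbered 1 with a pseudocount of 0.1, under upper quartile scaling and by voom, and 0 to 1 with libraries left out. The median of all 31 members was -0.46 there under upper quartile scaling. For RANKL without PRDX1 the members raised numbered 13 by quantile normalization and 15 by upper quartile scaling, and the median of all 31 was 0.67 by voom. Over all genes the split of higher against lower calls there went from 1383 and 1165 to 1088 and 1322 by quantile normalization and 1181 and 1270 by upper quartile scaling. For RANKL with PRDX1 that split went from 529 and 466 to 457 and 563 under quantile normalization, and 1 member was raised with a pseudocount of 0.1 and by voom. For PRDX1 without RANKL, 0 to 1 members were lowered with libraries left out. In the interaction of PRDX1 and RANKL, 2 members were lowered under upper quartile scaling and 2 to 7 with libraries left out, with a median of -0.44 to -0.37. Single members lost a call in 27 cases, and others gained one. The sign of Idh1, PRDX1 with RANKL, turned to 0.065 by quantile normalization and 0.084 by upper quartile scaling, and with libraries left out it ranged from -0.065 to 0.064, with 0.034 between, and that of Pcx, PRDX1 with RANKL, from -0.23 to 0.015, with 0.0074 between, none of them called. The cause of these changes was not tested. The replicate numbers are shared between groups, but deviations of same-numbered libraries correlated by only 0.0085 to 0.096, so they were not taken as pairs. The file header names the libraries by other numbers than the labels, so libraries that share a label number need not share a culture number, and the correlations and the block rest on the labels. With the replicate block the members lowered by PRDX1 with RANKL were 12, those raised by RANKL without PRDX1 18 and those lowered in the interaction 4, as without it. With 2 libraries per group, a mean difference near 1.5-fold falls on either side of the threshold, and Pcx and Pdk2, at 84 to 238 reads, were the least precise.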
